A study of Homo sapiens with 8 samples.

Results

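The S100 calcium-binding proteins are described here through 10 genes, S100A2, S100A3, S100A4, S100A6, S100A10, S100A11, S100A13, S100A14, S100A16 and S100P, taken by symbol from a table of 62649 genes. RNA was sequenced from AsPC-1 and PANC-1, human cell lines established from pancreatic ductal adenocarcinoma, both labelled wild type. The cells were grown for 3 days as spheroids in methylcellulose medium and then given the vehicle, 10 µM roseoflavin (an antibiotic analogue of riboflavin), 1 nM trametinib (a drug that blocks the MEK kinases upstream of ERK) or both compounds for 24 h. Each of the 4 treatments gave 1 library in each of the 2 lines, 8 in all. No condition was sequenced more than once, so the 4 libraries of a line, which differ in treatment, stood in for replicates in the comparison of the lines, and the labels do not say whether they came from separate cultures. Each line is a single established line, so a difference between them is a difference between these lines only.

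S100 proteins are small proteins with a pair of EF-hand motifs, helix-loop-helix folds that bind calcium. Most work as dimers that expose a binding surface when calcium is bound and dock onto partner proteins inside the cell, and several are released and bind surface receptors such as AGER (RAGE). Most of the genes lie in a cluster on the long arm of chromosome 1, and S100P lies apart on chromosome 4. Several members, S100P, S100A2 and S100A4 among them, are known for raised expression in pancreatic carcinoma.

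Values are in TPM, a transcript measure that is divided by gene length and has the same total in every library, so levels of different genes can be set side by side. TPM keep no record of read depth, so the counting error behind each value is unknown, and values of a few TPM or less are the least certain. The share of the 10 genes in the total was 1.08% to 1.19% in the AsPC-1 libraries and 0.460% to 0.512% in those of PANC-1. Transcripts of the mitochondrial genome held 41.2% to 44.1% of it in the former and 22.8% to 25.6% in the latter, and with a fixed total this lowers the TPM of all other genes in AsPC-1. For this reason the comparison of the lines was also made with the mitochondrially encoded genes removed and the rest rescaled. Of the markers of epithelial cells, 5 of 5 were detected in every library, with a summed level of 7392 to 8509 TPM in AsPC-1 and 2709 to 3029 TPM in PANC-1. The 4 mesenchymal markers summed to 668 to 825 TPM in AsPC-1, where CDH2 was listed at 0, and to 3155 to 3416 TPM in PANC-1. The leukocyte marker PTPRC was at 0.019 TPM or less and the 3 endothelial markers summed to 0.096 TPM or less in every library. The 5 leukocyte and myeloid genes summed to 1969 to 2085 TPM in AsPC-1, nearly all of it LYZ, and to 123 to 142 TPM in PANC-1, and the 3 fibroblast genes to 103 to 146 TPM in AsPC-1, nearly all of it LUM, and to 0.892 TPM or less in PANC-1. The part of these markers in the differences between the lines given below was not tested. In RNA from whole spheroids, fewer cells that express a gene and less of its RNA in each cell cannot be told apart.

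The family split into a group of very abundant transcripts and a tail. S100A4, S100A6, S100A10 and S100A11 made up from 95.3% to 96.7% of the summed TPM of the 10 genes in every library. S100A4, a calcium sensor that binds non-muscle myosin and is linked to cell motility, led in AsPC-1 with 3797 ± 201 TPM (SD, n = 4). S100A10, the partner of annexin A2, followed with 2441 ± 96.2 TPM, S100A6, which binds the CACYBP protein, with 2323 ± 78.7 TPM, and S100A11, a partner of annexin A1, with 2291 ± 152 TPM. The ranges of S100A10 and S100A6 overlapped, and so did those of S100A6 and S100A11, while S100A4 stood clear of them. In PANC-1 the order was S100A6 (2365 ± 172 TPM), S100A11 (1057 ± 21.8 TPM), S100A10 (798 ± 29.3 TPM) and S100A4 (499 ± 23.5 TPM), with no overlap between neighbours. S100A4 thus went from 1st place in AsPC-1 to 4th in PANC-1. The ratio of S100A4 to S100A6, which no rescaling of a library can change, was between 1.61 and 1.68 in AsPC-1 and between 0.204 and 0.218 in PANC-1.

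Below these came S100A16, a widely expressed member, with 297 ± 21.2 TPM (SD, n = 4) in AsPC-1 against 86.1 ± 1.46 TPM in PANC-1; the values of the next genes follow in that order. S100A13, which takes part in the release of proteins that lack a signal peptide, was at 46.0 ± 5.66 and 51.4 ± 2.33 TPM. S100P, a member that binds ezrin, was at 82.9 ± 5.54 and 6.71 ± 3.40 TPM. S100A2, a mostly nuclear member of epithelial cells, was at 10.5 ± 2.02 and 4.61 ± 1.00 TPM. S100A3, best known from hair cuticle, was at 1.60 ± 0.787 and 22.6 ± 3.13 TPM. S100A14, an epithelial member, was at 61.0, 68.1, 61.3 and 64.6 TPM in AsPC-1 with vehicle, roseoflavin, trametinib and both. In PANC-1, in the same order, S100A14 was at 0.262, 0.081, 0 and 0.116 TPM, and an exact 0 in such a table means only that the gene is listed at 0. It was the member closest to absent in either line. From S100A16 downward the ranges of neighbours in the order of levels did not overlap in either line, with the exception of S100P and S100A2 in PANC-1.

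**Figure D1:**
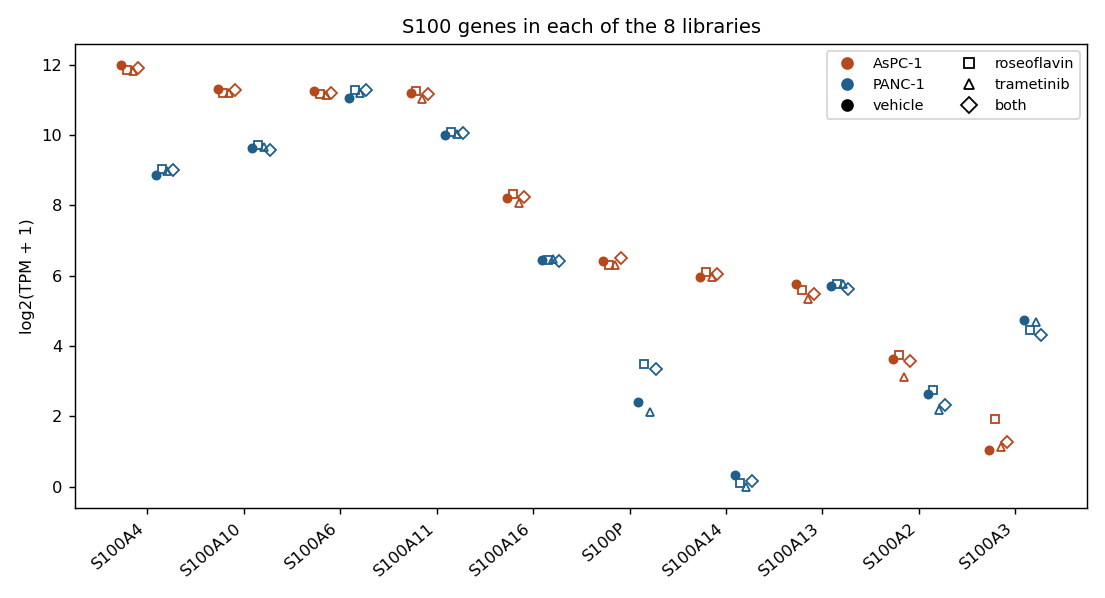
TPM of the 10 S100 genes in each library, on the vertical axis as log2(TPM + 1), with colour for the line and symbol for the treatment; genes are ordered by their mean in AsPC-1. The points of a line sit close together for most genes, S100A14 lies near 0 in PANC-1, and S100P in PANC-1 separates by treatment.

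The first comparison set the 4 PANC-1 libraries against the 4 AsPC-1 libraries, with both compounds as terms of a linear model fitted with limma to log2(TPM + 1) of 19122 genes. S100A2, S100A4, S100A10, S100A11, S100A14, S100A16 and S100P were higher in AsPC-1, S100A3 was higher in PANC-1, and S100A6 and S100A13 did not pass a Benjamini-Hochberg adjusted p of 0.05. The lines differ in most of their transcriptome, so a call by itself says little: 83.8% of the tested genes were called, 21.5% as higher in AsPC-1 and 62.3% as higher in PANC-1. Read against these shares, 8 of 10 members called is near the background, while 7 of 10 were called in the AsPC-1 direction. Likewise 8 of 10 members stood at an unadjusted p under 0.05, beside 84.5% of all genes. The median difference, PANC-1 minus AsPC-1, was -1.36 over the 10 genes and 0.55 over all genes tested. Without the mitochondrially encoded genes 9 of 10 members were called as higher in AsPC-1, beside 6298 of 20467 genes. Under quantile normalization 8 of 10 were, beside 7177 of 19122. All 10 members passed the filter on low values, of at least 1 TPM in 2 libraries. S100A14 passed it through AsPC-1 alone, so that it had to differ between the lines and its call adds no support to these counts.

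For S100A14, kept through AsPC-1 alone, the difference is given as a description with no test, -5.86 with the pseudocount of 1 and -8.36 with one of 0.1, since PANC-1 is near 0. S100P differed by -3.56 (SE 0.235, adjusted p 9.29e-06), a 12.4-fold ratio of the mean TPM, and its PANC-1 libraries, between 3.35 and 10.1 TPM, all lay far below the lowest AsPC-1 value of 78.1 TPM. S100A4 differed by -2.92 (SE 0.0570, adjusted p 3.45e-08), a 7.60-fold ratio. S100A4 was at 4071, 3674, 3624 and 3820 TPM in AsPC-1 with vehicle, roseoflavin, trametinib and both, and at 467, 521, 500 and 509 TPM in PANC-1. S100A16 differed by -1.77, S100A10 by -1.61, S100A11 by -1.11 and S100A2 by -1.04, ratios of 3.45, 3.06, 2.17 and 2.28 in mean TPM, each with an adjusted p of 1.30e-05 or less. In each of these 7 genes the lowest AsPC-1 library lay above the highest PANC-1 library. With S100A3, described next, 8 of 10 members had ranges that did not overlap, beside 79.2% of all genes. S100A14 is among the 8 and adds no support to that count.

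S100A3 alone among the 10 was called as higher in PANC-1, by 3.22 (SE 0.201, adjusted p 6.95e-06), a 14.2-fold ratio of the mean TPM. It was at 25.8, 21.1, 24.6 and 19.0 TPM in PANC-1 with vehicle, roseoflavin, trametinib and both, and at 1.06, 2.76, 1.17 and 1.40 TPM in AsPC-1. The body of S100A3 lies wholly inside the annotated span of S100A4 on the same strand, with 2044 shared bases, and how reads of such a stretch were assigned is not given in the sources used here. The overlapping genes differed between the lines in opposite directions, S100A4 being higher in AsPC-1 and S100A3 higher in PANC-1, while within each library S100A4 was the more abundant of both.

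S100A6 was nearly level between the lines as deposited, at 2418, 2287, 2237 and 2352 TPM in AsPC-1 with vehicle, roseoflavin, trametinib and both, and at 2136, 2498, 2329 and 2496 TPM in PANC-1. The ranges overlapped, and the difference was 0.02 (SE 0.0573, adjusted p 0.721). It became -0.37 (adjusted p 0.000301), higher in AsPC-1, without the mitochondrially encoded genes, and -0.08 (adjusted p 0.0680) under quantile normalization. S100A13 was at 53.1, 47.5, 39.8 and 43.8 TPM in AsPC-1 and at 51.3, 52.9, 53.2 and 48.1 TPM in PANC-1, in the same order. Its difference of 0.16 (SE 0.0721, adjusted p 0.0743) also turned, to -0.22 (adjusted p 0.0229) without the mitochondrially encoded genes and to -0.30 (adjusted p 0.00544) under quantile normalization, and it passed as higher in PANC-1 when the AsPC-1 vehicle library (0.22, adjusted p 0.0237) or the PANC-1 vehicle library (0.21, adjusted p 0.0497) was left out. No order between the lines can be read for these genes. S100A13 also shares 5029 bases with a noncoding transcript on the same strand, AL162258.1, listed at 84.4 to 116 TPM.

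The choice of total moved all genes and not only these. The median difference of all genes went from 0.55 as deposited to 0.22 without the mitochondrially encoded genes and to 0.04 under quantile normalization, and the share of called genes that were higher in PANC-1 went from 74.4% to 60.9% and 52.6%. Relative to the median of all genes, the 8 called members kept their direction under all 3 scalings, which for S100A14, near 0 in PANC-1, had to be so. S100A4, for example, lay -3.48, -3.53 and -3.21 from the median as deposited, without the mitochondrially encoded genes and under quantile normalization, and S100A3 lay 2.67, 2.87 and 2.64 from it. Relative to the same medians S100A6 lay -0.53, -0.59 and -0.13 away and S100A13 lay -0.39, -0.44 and -0.34 away.

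**Figure D2:**
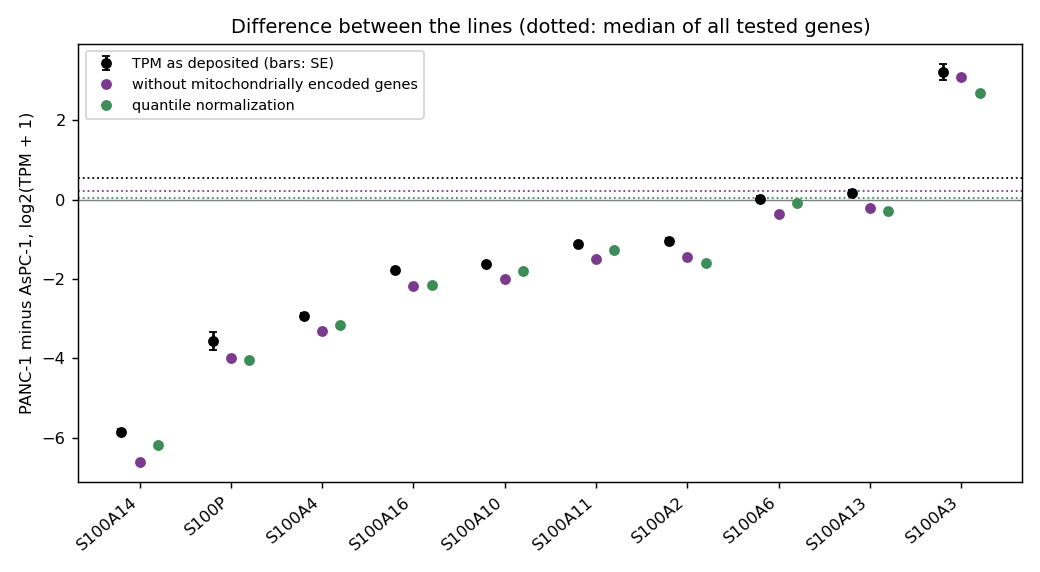
Difference between the lines for each S100 gene, PANC-1 minus AsPC-1 on the log2(TPM + 1) scale, for TPM as deposited (black, bars are the SE) and under 2 other scalings, with the median of all tested genes dotted in the same colours. The 7 genes on the left lie below 0 and S100A3 above 0 under each scaling, while S100A6 and S100A13 change sign.

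The promoters of S100A14 and S100P, with wide differences between the lines, and of S100A6, which was not called between them as deposited, are printed here because they differ in a feature that the choice of members did not use, the number of CG dinucleotides. The 250 bases before the RefSeq start site were read for the 10 genes, all of them found, from the table for GRCh38.p14. All 27305 promoters of that length held a median of 11 CG, with quartiles of 3 and 23. S100A6 and S100A10 held 24 each, S100A11 and S100A13 held 15 each, S100A4 held 7, S100A2, S100A3, S100A14 and S100P held 4 each and S100A16 held 1. The RefSeq starts do not all match the gene spans used below. The S100A13 window (153634362 to 153634611) lies beyond the S100A13 span and inside that of the neighbour CHTOP (153633982 to 153646306). The S100A11 window (152037005 to 152037254) lies inside the S100A11 span, which ends at 152047907. The windows of S100A2, S100A4, S100A6, S100A10, S100A14 and S100P also lie inside the spans of their genes. Those of S100A3 and S100A16 overlap the spans of their genes in part. The 4 genes above the median thus include both genes that were not called between the lines as deposited, S100A6 and S100A13. Both were called without the mitochondrially encoded genes, and the S100A13 window is the one inside the CHTOP span. The 6 genes below the median include the 5 widest differences, of S100A14, S100P, S100A3, S100A4 and S100A16. S100A14 was kept by the filter through AsPC-1 alone, so it had to differ and its place adds no support. The genes do not sort cleanly, however. S100A10 and S100A11, also above the median, differed by -1.61 and -1.11, more than S100A2 below it, which differed by -1.04. A link between CG number and the differences was not tested. This is a description of 10 genes, 9 of them from one locus, and methylation was not measured. The stretches of S100A6 (chr1:153535992-153536241, minus strand), S100A14 (chr1:153616326-153616575, minus strand) and S100P (chr4:6693628-6693877, plus strand) follow, 5′ to 3′ along the gene's strand, with each CG in capitals.
S100A6: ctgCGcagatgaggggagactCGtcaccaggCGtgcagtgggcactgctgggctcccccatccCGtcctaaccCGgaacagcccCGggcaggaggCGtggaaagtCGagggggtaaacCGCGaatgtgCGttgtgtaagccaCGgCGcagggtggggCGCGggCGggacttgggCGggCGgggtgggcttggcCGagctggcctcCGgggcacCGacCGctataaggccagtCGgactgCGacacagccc
S100A14: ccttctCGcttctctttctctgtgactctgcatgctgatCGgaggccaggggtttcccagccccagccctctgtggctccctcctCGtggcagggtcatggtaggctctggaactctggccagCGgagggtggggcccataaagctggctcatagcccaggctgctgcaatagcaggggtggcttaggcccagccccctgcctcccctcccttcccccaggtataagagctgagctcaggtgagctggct
S100P: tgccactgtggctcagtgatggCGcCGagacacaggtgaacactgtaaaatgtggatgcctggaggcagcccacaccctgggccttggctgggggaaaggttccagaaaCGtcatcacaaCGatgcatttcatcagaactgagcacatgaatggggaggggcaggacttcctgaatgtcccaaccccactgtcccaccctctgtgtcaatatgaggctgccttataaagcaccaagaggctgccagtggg

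Of the genes, 9 lie on chromosome 1 and 7 of these in the 96.8 kb from the start of S100A6 (153534599) to the end of S100A13 (153631360), in the order S100A6, S100A4, S100A3, S100A2, S100A16, S100A14 and S100A13, all on the minus strand. Neighbours in this stretch differed from each other. Going along it, the difference between the lines was 0.02, -2.92, 3.22, -1.04, -1.77, -5.86 and 0.16, with the 1st and the last of them turning sign under the other scalings. S100A14 and S100A13 are next to each other, and as deposited their differences were -5.86 and 0.16. S100A10 (151982915 to 151994390) and S100A11 (152032506 to 152047907) lie apart from that stretch and close to each other, and S100P spans 6693069 to 6697170 on chromosome 4. Of 18 listed genes around the cluster 11 passed the filter, with differences between -0.14 (JTB) and 1.00 (ILF2). Of the 11, 8 were called as higher in PANC-1 and 1 as higher in AsPC-1, beside 62.3% and 21.5% of all genes. These counts became 4 and 4 without the mitochondrially encoded genes and 4 and 5 under quantile normalization. ILF2 was at 116 to 130 TPM in AsPC-1 and at 237 to 252 TPM in PANC-1, SLC39A1 at 117 to 128 and 138 to 151 TPM, RAB13 at 108 to 116 and 119 to 124 TPM, and JTB at 108 to 121 and 99.5 to 107 TPM. The differences of the S100 genes in the stretch ran over a wider range than those of these 11 genes. All 11 lie on the same side of the stretch, beyond S100A13, and the listed genes on the other side did not pass the filter. The -5.86 of S100A14, kept through AsPC-1 alone, adds no support, and the other S100 genes of the stretch ran from -2.92 to 3.22.

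**Figure D3:**
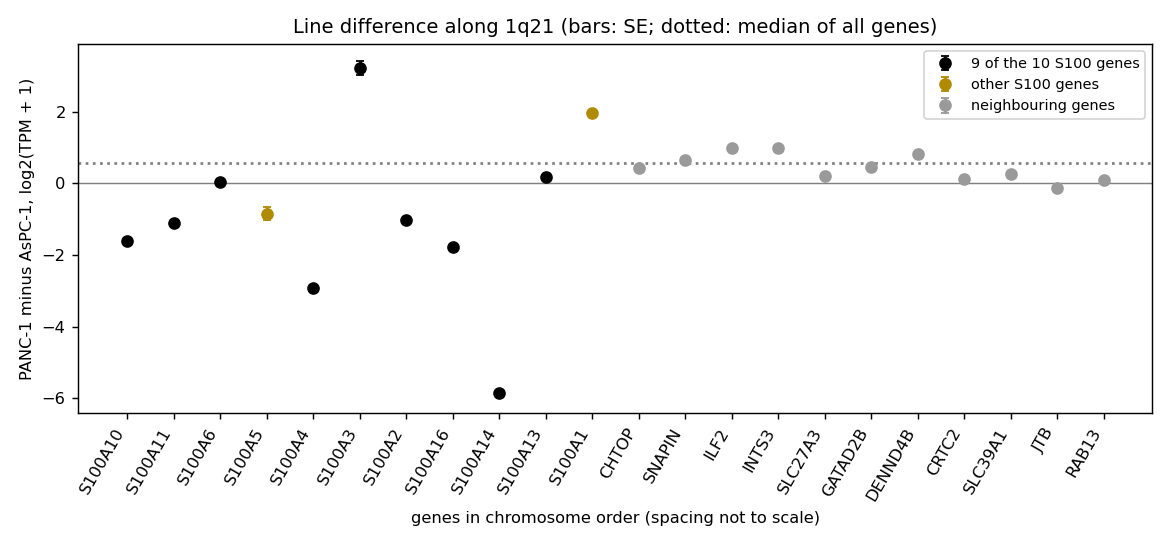
Difference between the lines (PANC-1 minus AsPC-1, log2(TPM + 1), bars are the SE) for tested genes of the chromosome 1 region in chromosome order, with spacing not to scale and the median of all genes dotted. The S100 genes run from -5.86 (S100A14, kept by the filter through AsPC-1 alone) to 3.22. The neighbouring genes, all beyond S100A13, run from -0.14 to 1.00. S100A6, S100A13 and several neighbours near 0 change sign under other scalings.

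The rest of the family was close to silent. Of 11 further S100 genes 2 passed the filter, S100A1, a heart and muscle member, and S100A5, a gene between S100A6 and S100A4. S100A1 was at 3.17 to 3.64 TPM in PANC-1 and at 0.283 TPM or less in AsPC-1, and since it passed the filter through PANC-1 alone no test is given. It overlaps S100A13 on the opposite strand. S100A5 was at 1.88 to 4.05 TPM in AsPC-1 and at 0.761 to 1.62 TPM in PANC-1. S100A8, S100A9 and S100A12, the calgranulins of myeloid cells, were listed at 0 in all 8 libraries, as were S100A7A and S100A7L2, and the other 4 reached at most 0.434 TPM. The 7 fused-type genes, in which S100 motifs head a long repeat protein of the epidermis, reached at most 0.359 TPM. The 8 named pseudogenes of S100A11 reached at most 0.475 TPM.

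The known partners were called in both directions, and the lists were not tested against the members. Over all 19122 genes tested, 62.3% were called as higher in PANC-1 and 21.5% as higher in AsPC-1. Without the mitochondrially encoded genes 9814 and 6298 of 20467 genes were called in these directions, and under quantile normalization 7963 and 7177 of 19122. The counts of each list are to be read beside these. Of 9 genes, annexins and the scaffold AHNAK, 6 were called as higher in PANC-1 and 3 as higher in AsPC-1. The counts became 3 and 4 without the mitochondrially encoded genes and 4 and 4 under quantile normalization. ANXA3 and ANXA6 reached 1 TPM in a single line, so the filter fixed the direction of their calls, which add no support to the counts. ANXA2, the scaffold that pairs with S100A10 at the membrane, was at 356 to 375 TPM (AsPC-1) and 473 to 501 TPM (PANC-1). Its difference of 0.41 (SE 0.0341) became 0.02 (adjusted p 0.514) without the mitochondrially encoded genes. Under quantile normalization it was 0.11 (adjusted p 0.00933). The ANXA1 difference of 0.15 turned, to -0.24 without the mitochondrially encoded genes and to -0.30 under quantile normalization. The ratio of S100A10 to ANXA2 in TPM was between 6.53 and 6.85 in AsPC-1 and between 1.55 and 1.69 in PANC-1, and the ratio of S100A11 to ANXA1 between 37.3 and 40.3 and between 15.9 and 16.7. AHNAK, which binds the pair of S100A10 and ANXA2, was at 100 to 107 TPM in AsPC-1 and 400 to 427 TPM in PANC-1. ANXA5 was at 111 to 121 and 245 to 259 TPM, and ANXA7 at 86.2 to 98.2 and 116 to 123 TPM, a difference of 0.39 that became -0.0016 (adjusted p 0.977) without the mitochondrially encoded genes and -0.05 under quantile normalization. The 3 called as higher in AsPC-1, named after their values were seen, were ANXA4 (153 to 189 against 33.0 to 34.3 TPM), ANXA11 (106 to 123 against 66.3 to 70.7 TPM) and ANXA3 (32.2 to 35.6 against 0.023 TPM or less).

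Of 13 other binding partners 12 passed the filter. Of these, 8 were called as higher in PANC-1 and 3 as higher in AsPC-1 (7 and 4 under both other scalings), beside 62.3% and 21.5% of all genes. IL1A and SYT1 among them reached 1 TPM in a single line, so the filter fixed the direction of their calls. EZR, the membrane linker ezrin that S100P binds, was at 588 to 669 TPM in AsPC-1 and 303 to 319 TPM in PANC-1, the same direction as S100P. MYH9, the heavy chain of non-muscle myosin that S100A4 binds, was at 105 to 114 and 279 to 300 TPM, the opposite direction to S100A4. IQGAP1 was at 39.8 to 45.4 and 166 to 172 TPM, and STUB1, a ubiquitin ligase, at 60.1 to 77.2 and 143 to 154 TPM. Of 7 receptors 4 were called as higher in AsPC-1 and 2 as higher in PANC-1 (5 and 1 under both other scalings), beside 21.5% and 62.3% of all genes. TLR4 and CD36 passed the filter through AsPC-1 alone, which fixed the direction of their calls. BSG was at 271 to 298 TPM in AsPC-1 and 482 to 507 TPM in PANC-1, ITGB1 at 149 to 162 and 189 to 206 TPM, EGFR at 61.8 to 66.0 and 41.6 to 45.6 TPM, and ALCAM at 16.8 to 22.8 and 17.3 to 19.1 TPM. AGER, the receptor most often named for released S100 proteins and picked here for that reason, was at 2.21 to 5.48 TPM over the 8 libraries. The ranges of the lines overlapped, yet AGER was among the 4 called as higher in AsPC-1 (-0.40, limma adjusted p 0.0335). Its difference was -0.76 without the mitochondrially encoded genes and -0.97 under quantile normalization. Of 8 genes of the plasminogen system, to which S100A10 binds at the cell surface, 7 passed the filter. Of these, 4 were called as higher in PANC-1 and 3 as higher in AsPC-1 (3 and 3 under both other scalings), beside 62.3% and 21.5% of all genes. PLAT and SERPINE2 passed the filter through AsPC-1 alone, which fixed the direction of their calls. SERPINE2, a protease inhibitor, was at 140 to 149 TPM in AsPC-1 and 0.208 to 0.281 TPM in PANC-1. PLAU, the urokinase activator of plasminogen, was at 52.5 to 66.9 and 323 to 351 TPM, and ENO1, a glycolytic enzyme that also binds plasminogen, at 413 to 445 and 1628 to 1717 TPM.

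The effect of each compound was estimated across the lines, from the 4 libraries given it and the 4 without it. No member passed for roseoflavin, trametinib or the combination against vehicle, and the background was the same: 0 of 19122 genes passed (0%) in each of these comparisons with limma. At an unadjusted p under 0.05 stood 2 of 10 members for roseoflavin (S100A2 and S100P) beside 7.1% of all genes, 1 of 10 for trametinib (S100A2) beside 4.91%, and 0 of 10 for the combination of both compounds beside 5.32%. The median over the members was 0.06 for roseoflavin (all genes -0.02), -0.07 for trametinib (all genes 0.02) and -0.02 for the combination (all genes 0.0046).

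S100P gave the widest separation with roseoflavin, in PANC-1. It was at 4.25 TPM with vehicle, 3.35 TPM with trametinib, 10.1 TPM with roseoflavin and 9.12 TPM with both. Both PANC-1 libraries with roseoflavin lay above both without it, and the ratio was 2.38 alone and 2.72 on top of trametinib. In AsPC-1 the values in the same order were 85.0, 78.8, 78.1 and 89.8 TPM, and those with and without roseoflavin overlapped. At 1.5-fold or more on the log2(TPM + 1) scale, S100P was the 1 member past that size in PANC-1 with roseoflavin against vehicle, beside 5.73% of all genes. On this scale the PANC-1 values of S100A14, 0.262 TPM or less, do not count as a change of that size. S100P was again the 1 member with both against vehicle, beside 6.38%, and with both against trametinib, beside 7.15%. For trametinib against vehicle and for both against roseoflavin in PANC-1 0 members reached that size, beside 5.82% and 5.97%. These are comparisons of 1 library with 1 and have no test. The effect over both lines was 0.59 (SE 0.235, unadjusted p 0.0434, limma adjusted p 0.686), higher in 3 of 4 matched comparisons.

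The difference between the lines in the roseoflavin response, taken as PANC-1 minus AsPC-1, was 1.12 for S100P (SE 0.164, unadjusted p 0.000915, limma adjusted p 0.222) and did not pass. It had the smallest p of the 10 members. Over all genes 5 of 19122 passed (0.0261%), and 2 of 10 members, S100P and S100A3, stood at an unadjusted p under 0.05 beside 9.97% of all genes. The adjusted p of S100P ran from 0.0882, when only genes averaging 10 TPM or more were tested, to 0.646, without the PANC-1 trametinib library, over the alternatives tried, and its difference from 0.93 to 1.30.

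S100A2 gave the smallest p with trametinib. In AsPC-1 it was at 11.3 TPM with vehicle, 7.62 TPM with trametinib, 12.3 TPM with roseoflavin and 10.9 TPM with both. In PANC-1 the values in the same order were 5.18, 3.53, 5.69 and 4.02 TPM. The value with trametinib was lower in 4 of 4 matched comparisons, with changes of -32.6% and -11.5% in AsPC-1 and of -32.0% and -29.4% in PANC-1, without and with roseoflavin. S100A2 was the 1 member of 10 lower in all 4, beside 4.54% of all genes, and 0 of 10 were higher in all 4, beside 9.66%. The effect was -0.39 (SE 0.0732, unadjusted p 0.00162, limma adjusted p 0.861), the 26th smallest p of 19122, and it did not pass. With roseoflavin S100A2 was higher in 4 of 4 matched comparisons (0.21, SE 0.0732, adjusted p 0.674), as was S100A11 (0.07, SE 0.0443, adjusted p 0.785), which makes 2 of 10 members beside 4.91% of all genes, while 0 of 10 were lower in all 4, beside 10.2%. The largest of these S100A2 steps, from 7.62 to 10.9 TPM, was on top of trametinib in AsPC-1. The departure of the combination from the sum of the compounds was 0.19 for S100A2 (SE 0.139, adjusted p 1.00), the smallest p of the members, with 0 of 19122 genes past the threshold (0%) and 0 of 10 members at an unadjusted p under 0.05 beside 2.8% of all genes.

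**Figure D4:**
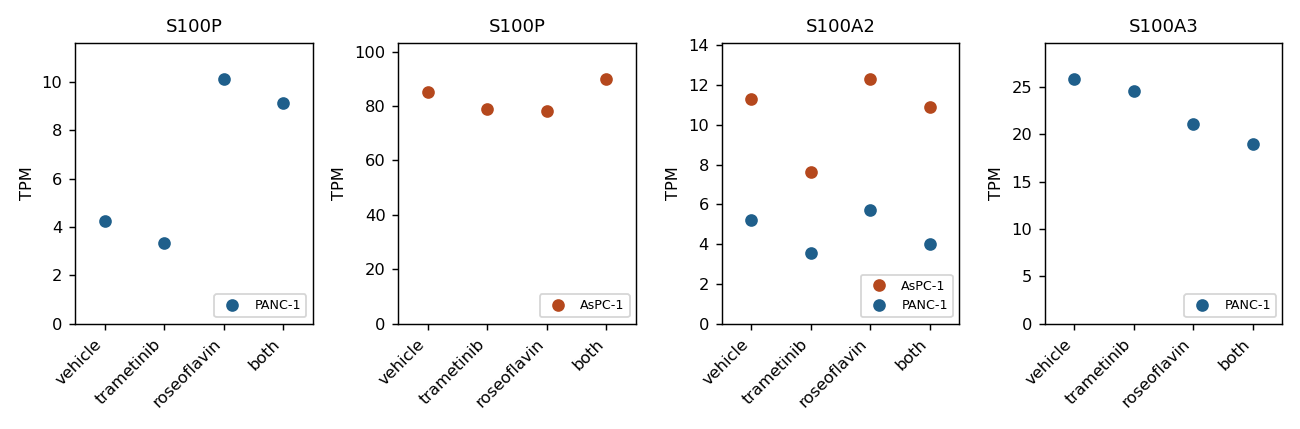
TPM of S100P in PANC-1 and in AsPC-1, of S100A2 in both lines and of S100A3 in PANC-1 with vehicle, trametinib, roseoflavin and both, 1 library per point, each axis starting at 0. S100P in PANC-1 is at 3.35 to 4.25 TPM without and 9.12 to 10.1 TPM with roseoflavin, and S100A2 is lower with trametinib in each matched pair.

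As a scale for trametinib, 8 genes that ERK drives were listed, and 8 of 8 had a negative effect, with a median of -0.19 and 0 passing. DUSP6, a phosphatase that ERK induces, had an effect of -0.38 (SE 0.0360), SPRY4 of -0.28 (SE 0.0587), PHLDA1 of -0.23 (SE 0.0771) and FOSL1, a subunit of the AP-1 transcription factor, of -0.15 (SE 0.0910). The effect of S100A2 (-0.39, SE 0.0732) was of the size of that of DUSP6 but less certain, and neither passed. Whether they share a cause was not tested. With roseoflavin 3 of the 8 had a positive and 5 a negative effect and 0 passed, FOSL1 at 0.28 (SE 0.0910, adjusted p 0.660) and DUSP6 at -0.14 (SE 0.0360, adjusted p 0.641) among them.

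Because AP-1 is a known output of ERK, the 250 bases before the start site of each member were searched on both strands for the AP-1 letters TGANTCA. S100A2 and S100A3 held them, 2 of 10, beside 6.6% of all promoters, in S100A2 beginning 52 bases and in S100A3 beginning 225 bases before the start. The letters TGACNNNGC, the core of the antioxidant response element, were held by S100A13, whose window lies inside the span of CHTOP, and S100A14, 2 of 10, beside 11% of all promoters. ACGTG, the core of the hypoxia response element, was held by 0 of 10, beside 18.7%. S100P held none of the 3 in this window. The trametinib effect was -0.39 (SE 0.0732) for S100A2 and -0.19 (SE 0.201) for S100A3, neither passed, and a link to the letters was not tested. A match describes letters only, and binding was not measured. The S100A2 window lies inside the annotated span of S100A2, and the S100A3 window overlaps that of S100A3 in part. The promoters of S100A2 (chr1:153565845-153566094, minus strand) and S100A3 (chr1:153549259-153549508, minus strand) are shown 5′ to 3′ for the place of the AP-1 letters, which are in capitals.
S100A2: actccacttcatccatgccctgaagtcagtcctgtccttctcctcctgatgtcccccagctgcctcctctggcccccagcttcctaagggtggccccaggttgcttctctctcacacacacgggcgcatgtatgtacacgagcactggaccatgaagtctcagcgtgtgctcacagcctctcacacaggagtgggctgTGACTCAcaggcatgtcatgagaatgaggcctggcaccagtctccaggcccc
S100A3: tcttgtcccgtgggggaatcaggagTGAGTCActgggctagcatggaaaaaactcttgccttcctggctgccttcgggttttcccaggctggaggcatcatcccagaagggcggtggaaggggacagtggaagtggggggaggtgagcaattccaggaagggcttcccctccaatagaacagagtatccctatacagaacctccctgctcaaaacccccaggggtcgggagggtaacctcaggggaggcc

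S100A3 showed lower values with roseoflavin in PANC-1 and higher ones in AsPC-1. In PANC-1 its change was -18.4% alone and -22.6% on top of trametinib, and both libraries with roseoflavin lay below both without it. In AsPC-1 it went from 1.06 to 2.76 TPM alone, the 1 member past 1.5-fold there (beside 5.78% of all genes), and from 1.17 to 1.40 TPM on top of trametinib. It was also the 1 member past 1.5-fold between both compounds and roseoflavin alone in AsPC-1 (beside 5.68%), where 0 members reached that size for trametinib against vehicle (beside 5.86%), for both against vehicle (beside 6.15%) or for both against trametinib (beside 5.7%). The difference between the lines was -0.83 (SE 0.252, unadjusted p 0.0211, limma adjusted p 0.435) and did not pass. It is described for this comparison after its values were seen, and not by the rule for names.

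The other members stayed within narrow ranges. Outside S100A2, S100A3, S100P and the PANC-1 values of S100A14 near 0, the widest change between a library and its match without one compound was the -25.1% of S100A13 in AsPC-1, which was at 53.1 TPM with vehicle and at 39.8 TPM with trametinib. S100A13 also had the smallest p among the members for a difference between the lines in the trametinib response (0.22, SE 0.124, adjusted p 0.763), where 0 of 19122 genes passed (0%) and 0 of 10 members stood at an unadjusted p under 0.05 beside 7.28% of all genes. With roseoflavin S100A4 went from 4071 to 3674 TPM (AsPC-1) and from 467 to 521 TPM (PANC-1), and on top of trametinib from 3624 to 3820 TPM and from 500 to 509 TPM. S100A6 went in the same steps from 2418 to 2287, from 2136 to 2498, from 2237 to 2352 and from 2329 to 2496 TPM. In AsPC-1 10 of 10 members were higher with both compounds than with trametinib alone, with a median of 0.14 (all genes -0.0048), and in PANC-1 6 of 10 were, with a median of 0.02 (all genes 0). In AsPC-1 8 of 10 members were lower with trametinib than with vehicle (median -0.13, all genes 0). Both AsPC-1 comparisons share the AsPC-1 trametinib library and set 1 library against 1. Genes of a library are not replicates, and the share of all genes higher or lower is not given here. No response of the family can be read from these counts.

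**Figure D5:**
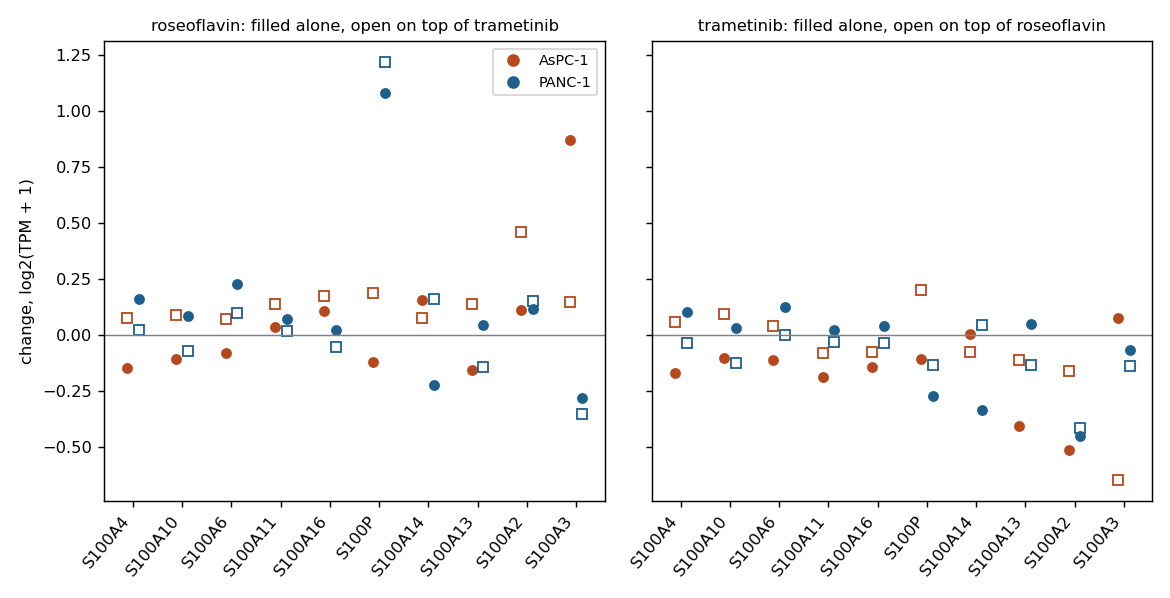
Change of each S100 gene with roseoflavin (left) and with trametinib (right) on the log2(TPM + 1) scale, 1 library against its match without that compound, filled for the compound alone and open for the compound on top of the other. S100P in PANC-1 lies at 1.08 and 1.22 with roseoflavin, S100A2 lies below 0 in all 4 trametinib comparisons, and most other points lie near 0.

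Likeness in the pattern over treatments was measured by Pearson's r over the 8 libraries after the mean of each line was removed, as a description, since all genes of a library share its total and depth. Among the 45 pairs of members r ran from -0.57 (S100A4 and S100A14) to 0.89 (S100A4 and S100A6), with a median of 0.32. S100A11 and S100A16 followed with 0.88. Of 8630 named genes averaging 10 TPM or more, those most like S100A4 were RPS12 (r = 0.99), RPS27A (0.99) and RPS27 (0.98), proteins of the small ribosomal subunit. Among those most like S100A6 were RPS16 (0.98) and RPS3 (0.98). Those most like S100P were MID1IP1 (0.99), FTL, the ferritin light chain (0.98), and LDHB (0.98), and those most like S100A2 were CYB5R2 (0.96), TRMT10C (0.93) and IRAK2 (0.93). With 8 libraries and 8630 genes searched, values of this size are reached by some genes for each of the 10 members, the lowest top value being 0.92 for CAVIN2 with S100A14.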

How the data were processed

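Gene expression was measured by RNA sequencing in 8 libraries, with libraries made by the TruSeq stranded mRNA kit from column-purified RNA, per the labels' protocols. The authors deposited TPM per gene, per the file headers, and the submitters' processing notes name hg38, STAR 2.7.3a and HTSeq 2.0.2 with no role. The annotation and the handling of shared reads are not given in the sources used here. The file held 62649 genes and 985926 blank rows, which were dropped. Depth is unknown, so no counting interval could be computed.

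Genes with at least 1 TPM in 2 libraries were kept, and log2(TPM + 1), a scale that understates changes of low genes, was fitted with limma 3.58.1 in R 4.3.3 (eBayes with a trend). The line and both compounds were additive terms, with a term added for each interaction. For the combination, treatment had 4 levels. P-values were adjusted over all genes by the Benjamini-Hochberg method. Scripts were tested on simulated data. The alternatives are given in the closing section. The members, lists and tests were chosen with earlier results of these data known. Names followed a rule: all members, and up to 4 genes per list by mean TPM, with exceptions stated; some genes that the rule names are not reported here. Coordinates are from GENCODE 29 (GRCh38) and promoters from RefSeq. Protein alignments were not run.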

Additional observations from a re-analysis of the deposited data

Results flagged for a closer look

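S100A3 moved in opposite directions in the lines with roseoflavin, lower in both PANC-1 comparisons (-0.28 and -0.35 on the log2(TPM + 1) scale, alone and on top of trametinib) and higher in both AsPC-1 comparisons (0.87 and 0.15). The difference of the changes, PANC-1 minus AsPC-1, was -0.83 and was tested in limma, where it did not pass (unadjusted p 0.0211, adjusted p 0.435). The AsPC-1 values were 2.76 TPM or less.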

How the results depend on the processing

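The labels give no replicate numbers, so no fit with a replicate block was made; libraries were matched by line and treatment through the terms of the fits. The 8 members called between the lines kept their direction and call under quantile normalization, without mitochondrially encoded genes, without a filter on low values, with a pseudocount of 0.1, without a trend in the prior variance and with each library left out in turn, and 7 of them with a mean of at least 10 TPM, which removes S100A2 from the test. S100A14, kept by the filter through AsPC-1 alone, is among them, and its calls add no support. No member passed for a compound under these alternatives or without a term for the line, and TPM hold no depth against which small changes could be judged. The cause of the changes below was not tested, other than that fewer genes were tested under the 10 TPM filter.

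For the line difference, S100A6 became -0.084 and S100A13 -0.30 under quantile normalization, and -0.37 and -0.22 without mitochondrially encoded genes. The genes called numbered 8388 with a mean of at least 10 TPM. For trametinib, S100A10 became 0.0031 under quantile normalization and S100A6 -0.0059 without mitochondrially encoded genes. For the combination, S100A14 became 0.011 and S100A16 -0.024 under quantile normalization, and S100A4 became -0.0082 and S100A16 -0.017 without mitochondrially encoded genes.

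For the line difference in the roseoflavin response, 0 genes passed in limma under quantile normalization (1927 at an unadjusted p under 0.05), 0 without mitochondrially encoded genes (2068) and 0 without a filter on low values (2718), while 8 passed with a pseudocount of 0.1 and 10 without a trend. With any 1 library left out, 0 passed, with 1202 to 2505 at an unadjusted p under 0.05. For the line difference in the trametinib response, 2 genes passed without mitochondrially encoded genes, 2 without a filter on low values, 4 with a pseudocount of 0.1 and 16 without a trend. With a pseudocount of 0.1, the members past 1.5-fold in PANC-1 numbered 2 for roseoflavin, 1 for trametinib and 2 for the combination.

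With each library left out in turn, the line difference of S100A6 ran from -0.0045 to 0.075. The roseoflavin effect ran from -0.12 to 0.23 for S100A3, from -0.016 to 0.083 for S100A4, from -0.028 to 0.031 for S100A10, from -0.099 to 0.029 for S100A13 and from -0.0021 to 0.12 for S100A14. The trametinib effect ran from -0.37 to 0.021 for S100A3, from -0.056 to 0.044 for S100A4, from -0.036 to 0.065 for S100A6, from -0.058 to 0.00023 for S100A10 and from -0.29 to 0.11 for S100P. The combination ran from -0.42 to 0.22 for S100A3, from -0.12 to 0.15 for S100A4, from -0.043 to 0.23 for S100A6, from -0.094 to 0.039 for S100A10, from -0.060 to 0.051 for S100A11, from -0.21 to 0.11 for S100A14 and from -0.032 to 0.047 for S100A16.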
